A study of Mus musculus with 24 samples.

Results

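The regulators of G protein signaling (RGS proteins) are the brakes of signaling through heterotrimeric G proteins. A hormone-bound receptor loads the G protein alpha subunit with GTP, and the conserved RGS domain speeds the hydrolysis of that GTP, so that the alpha subunit returns to its partner beta and gamma subunits and the signal ends. Most RGS proteins act on alpha subunits of the Gi and Gq classes. In the ovary such receptors respond to prostaglandins, endothelin, thrombin and other ligands beside the gonadotropins, whose receptors act mainly through Gs and cAMP. Here the transcripts of 9 Rgs genes, Rgs1, Rgs2, Rgs3, Rgs4, Rgs5, Rgs10, Rgs14, Rgs16 and Rgs19, were compared between ovaries of the mouse lines FL1 and DUKsi. They were chosen by gene symbol, and all probe sets annotated to these symbols were taken, 21 of the 22626 probe sets tested. A probe set is a group of short oligonucleotides on the array that are read as 1 signal.

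FL1 is an outbred line selected for an index of litter size and litter weight at birth. DUKsi is an unselected inbred line that goes back to the same crossbred population. The groups thus differ in selection and in breeding structure, which cannot be told apart here, and no gene was altered or agent given in either line. Whole ovaries of virgin females of 6 to 9 weeks were taken at metestrus, the stage of the estrous cycle that follows ovulation, and the RNA of several animals was combined into each pool. Each line had 6 pools, and each pool was hybridized to 2 MOE 430A arrays, 24 arrays in all, whose MAS5 signals (arbitrary units, linear scale) were averaged per pool. Means are given ± SD of 6 pools per line, and log2 fold changes ± SE. In whole ovaries, fewer cells of a type and less RNA per cell cannot be told apart.

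RNA integrity was read from the beta-actin control probe sets, whose 3' over 5' signal ratio was 1.67 on average in FL1 pools (1.32 to 2.45) and 1.27 in DUKsi pools (1.18 to 1.32; two-sided exact permutation test over the pools, p = 0.00217). For Gapdh this ratio averaged 1.53 in FL1 pools and 1.28 in DUKsi pools (p = 0.204 by the same exact permutation test). FL1 pool 3 had the highest ratio for both controls (2.45 for actin and 2.31 for Gapdh). It also had the highest or the lowest signal of its line in 16 of the 21 Rgs probe sets and in 55.2% of all probe sets. For FL1 pool 4 this was so in 0 and in 23.1%. The summed signals of luteal markers were 63269 to 74310 in FL1 and 33698 to 50494 in DUKsi pools, and 5 of 10 such genes rose, among them Cyp11a1, Hsd17b7 and Ptgfr. Of the granulosa cell markers, 3 of 10 fell (Grem1, Ccnd2 and Inhba), with sums of 33991 to 41134 in FL1 and 41696 to 48094 in DUKsi. The part of RNA integrity and of cell composition in the results below was not tested. A fit with the actin ratio as a covariate is given where it changes a call or a sign. The actin ratio was higher in each FL1 pool (lowest 1.322) than in each DUKsi pool (highest 1.317). This fit therefore cannot tell RNA integrity and line apart.

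A probe set was called different at an adjusted p under 0.01 (limma on log2 signals of the 12 pools, Benjamini-Hochberg over all probe sets) with a ratio of the mean signals of at least 1.5. By this rule 2 of the 21 Rgs probe sets were called, 1 higher and 1 lower in FL1, and both belong to Rgs5. Of all probe sets, 2.32% were called (1.24% higher and 1.07% lower in FL1), and the called Rgs probe sets are 9.52% of the 21 taken here. The genes were chosen with earlier results of these data known, so the shares given here are no test of the RGS family. Without the fold threshold the same 2 probe sets passed, against 3.38% of all. At an adjusted p under 0.05, 3 Rgs probe sets passed, with Rgs10 as the third, against 6.91% of all. The lines did not overlap in 1 Rgs probe set, against 4.62% of all. An unadjusted p under 0.05 was reached by 6 of the 21 (28.6%), against 19.8% of all. The log2 fold change, FL1 over DUKsi, was positive in 9 and negative in 12 probe sets, with a median of -0.07, the same as the -0.07 over all probe sets. For Rgs14 and for 1416287_at of Rgs4 the sign turned under quantile normalization and when the arrays were scaled to the same median. For 12 of the 21 the 95% interval of the fold change lay within 1.5-fold in both directions. Between pools of a line, the median SD of the log2 signal was 0.189 for Rgs probe sets above the 40th percentile of signal (14 of 21) and 0.190 for all such probe sets.

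**Figure D1:**
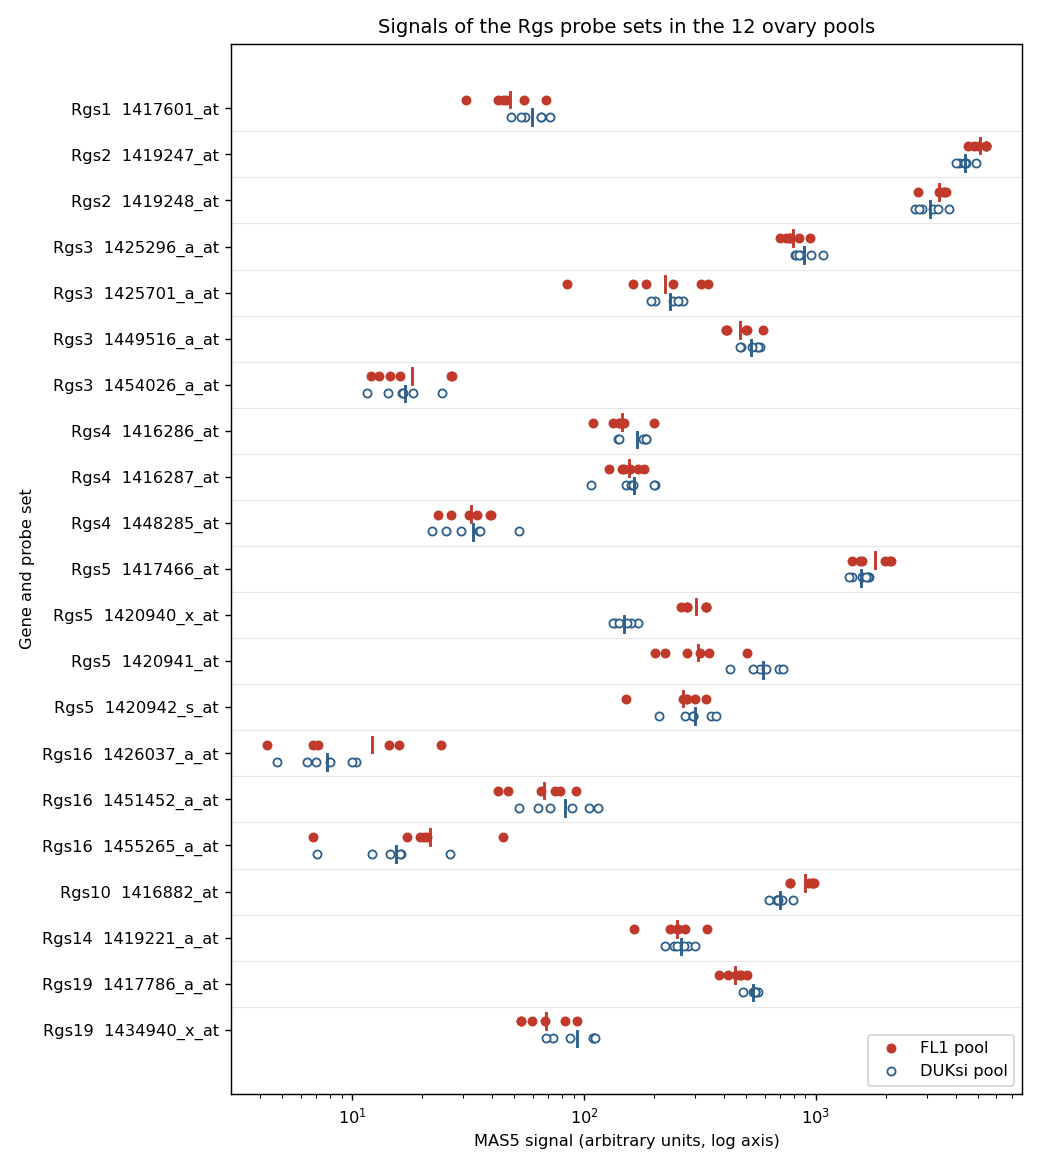
MAS5 signals (arbitrary units, log axis) of the 21 Rgs probe sets, 1 row each. Filled red points are the 6 FL1 pools, open blue points the 6 DUKsi pools, and vertical bars the mean of each line; the lines are apart without overlap only in 1420940_x_at of Rgs5.

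Rgs5 belongs to the R4 subfamily, small proteins that consist of little more than the RGS domain, and is a widely used marker of pericytes, the contractile cells on capillaries. Its 4 probe sets gave different answers, so each is given on its own. The study also measured Rgs5 by quantitative PCR (qPCR) in freshly made pools, and reports no association between these and the array values. Its text does not say which probe set was compared. It still names Rgs5 among the differing genes of G protein signaling. The suffix of a probe set's name gives its expected specificity: _at stands for a single transcript, _a_at for several transcripts of a gene, _s_at for transcripts of more than 1 gene, and _x_at for a set in which some probes also match unrelated sequences.

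In 1420940_x_at the signals of FL1 pools were 261 at the lowest, 307 in the median and 337 at the highest, against 133, 147 and 171 in DUKsi pools. Each FL1 pool was above each DUKsi pool, and also array by array the lines were apart (247 to 365 in FL1 and 110.5 to 186.4 in DUKsi). The mean was 304 ± 35.3 in FL1 pools and 148.5 ± 14.8 in DUKsi pools (n = 6 pools per line), a fold of 2.05 with a log2 fold change of 1.03 ± 0.115 (SE; limma, adjusted p = 2.9e-05). This increase passed in 26 of 26 alternative settings, with log2 fold changes of 0.84 to 1.12.

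In 1420941_at the direction was the opposite. FL1 pools had 202, 296 and 503 (lowest, median, highest) and DUKsi pools 425, 592 and 719. FL1 was lower in 35 of the 36 pairs of an FL1 and a DUKsi pool, and the exception was FL1 pool 2 against DUKsi pool 1. The mean was 311 ± 108.4 in FL1 pools and 593 ± 108.3 in DUKsi pools (n = 6 pools per line), a fold of 0.524 with a log2 fold change of -0.98 ± 0.191 (SE; limma, adjusted p = 0.00455). The decrease passed in 12 of 26 settings, with adjusted p of 2.74e-05 to 0.0520, and its log2 fold change was -1.13 to -0.81 in the 25 settings other than the actin covariate. The call was lost without FL1 pool 4, 5 or 6 and without DUKsi pool 2, 3, 4 or 6 (adjusted p up to 0.0132, with log2 fold changes of -1.13 to -0.87 over all single omissions), and with the actin ratio as a covariate the log2 fold change was -0.64 with an adjusted p of 0.0520.

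The other two probe sets of Rgs5 did not pass. In 1417466_at, FL1 pools had 1425, 1783 and 2110 and DUKsi pools 1383, 1614 and 1690 (lowest, median, highest), with a log2 fold change of 0.18 ± 0.103 (SE; limma, adjusted p = 0.370). The lines overlapped, although FL1 pools 3, 4 and 6 lay above all DUKsi pools. These pools also had the highest actin ratios among FL1 pools (2.45, 1.66 and 1.74). With the actin ratio as a covariate the log2 fold change of 1417466_at was -0.035. The part of RNA integrity in it was not tested. In 1420942_s_at, FL1 pools had 151, 276 and 334 and DUKsi pools 210, 296 and 371, with a log2 fold change of -0.18 ± 0.181 (SE; limma, adjusted p = 0.628). Here the ranges of the lines largely coincided.

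**Figure D2:**
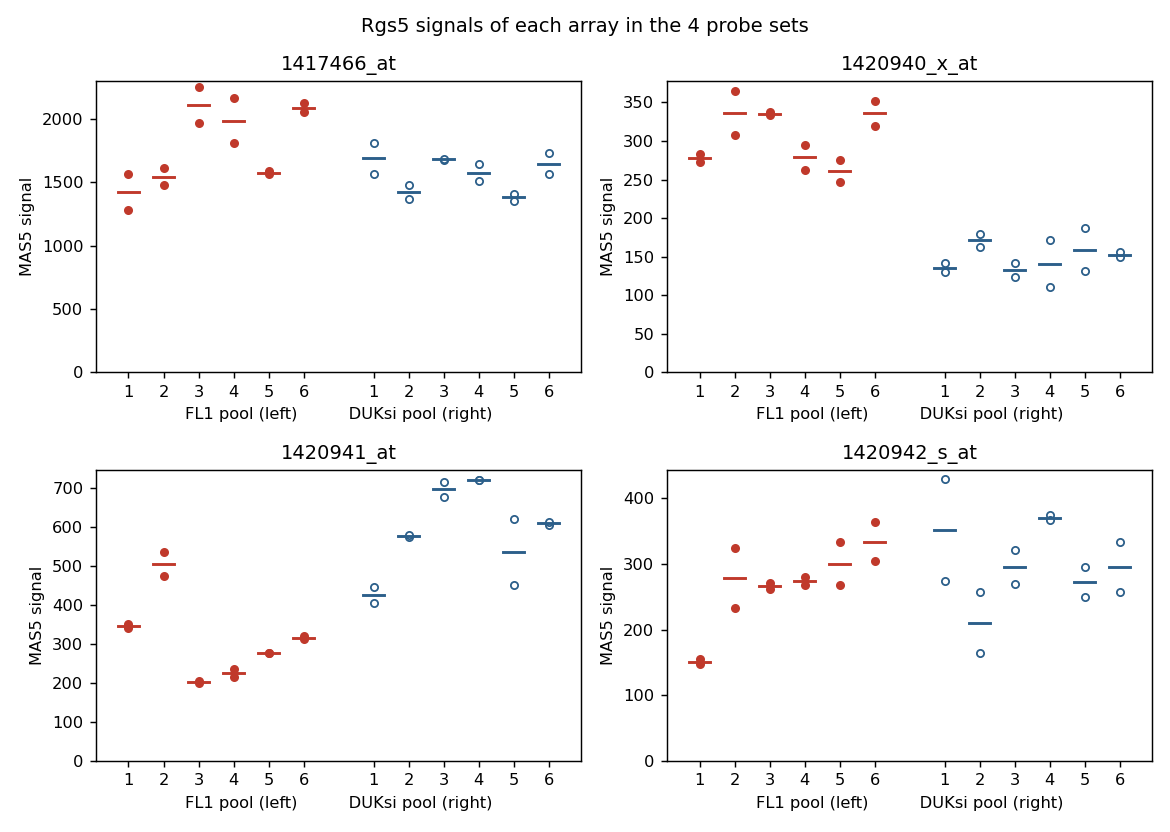
MAS5 signals (arbitrary units, linear axis starting at 0) of the single arrays for the 4 Rgs5 probe sets, 1 panel each. Points are arrays, horizontal bars the means of the 2 arrays of a pool, FL1 pools on the left and DUKsi pools on the right; FL1 is above DUKsi in 1420940_x_at, below it in 1420941_at but for FL1 pool 2, and overlaps with it in the other panels.

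The line differences of the Rgs5 probe sets were set against each other by the difference of their log2 signals in each pool. That these probe sets disagree was known when they were chosen, so the comparison describes the disagreement and is no independent evidence of it. The log2 fold change of 1420940_x_at exceeded that of 1420941_at by 2.01 and that of 1420942_s_at by 1.21. For 1417466_at it was below that of 1420940_x_at, with a difference of -0.86, and above that of 1420941_at, with a difference of 1.15. Among the 20 pairs of probe sets within a gene, these 4 had an adjusted p under 0.05 (two-sided exact permutation test, Benjamini-Hochberg over the 20 pairs). Around the line means, the deviations of 1417466_at over the 12 pools correlated with those of 1420942_s_at at r = 0.60 and with those of 1420941_at at r = -0.49, whereas the other 4 pairs of Rgs5 lay between -0.10 and 0.12. Of the 4956 genes with several probe sets, 215 had any called, 51 had several called and 5 had calls in both directions (H2-D1, Pdxdc1, Rgs5, Sdc4 and Zfp207).

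Rgs5 and Rgs4 are direct neighbours among the measured genes of chromosome 1, and Rgs2 lies on the same chromosome. The 250 bases before the transcription start of these R4 genes are shown because Rgs5 holds both calls, Rgs4 is its neighbour, and Rgs2 and Rgs4 are the members whose windows hold TGACG, the shorter form of the cAMP response element. The sequences are from RefSeq (GRCm38.p6), read 5' to 3' on the strand of the gene, with TGACG and CCAAT in capitals (CGTCA and ATTGG where they lie on the other strand).
Rgs5, chr1:169655251-169655500, plus strand: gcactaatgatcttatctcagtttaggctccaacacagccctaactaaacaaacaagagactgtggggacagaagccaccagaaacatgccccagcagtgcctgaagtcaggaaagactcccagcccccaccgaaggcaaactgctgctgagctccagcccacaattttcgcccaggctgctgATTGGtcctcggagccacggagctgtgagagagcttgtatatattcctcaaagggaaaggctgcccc
Rgs4, chr1:169747643-169747892, minus strand: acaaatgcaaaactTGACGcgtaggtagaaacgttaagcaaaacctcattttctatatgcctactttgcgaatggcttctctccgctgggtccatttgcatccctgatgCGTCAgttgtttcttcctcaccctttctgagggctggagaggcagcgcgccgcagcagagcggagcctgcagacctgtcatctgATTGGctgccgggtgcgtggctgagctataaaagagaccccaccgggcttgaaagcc
Rgs2, chr1:144004150-144004399, minus strand: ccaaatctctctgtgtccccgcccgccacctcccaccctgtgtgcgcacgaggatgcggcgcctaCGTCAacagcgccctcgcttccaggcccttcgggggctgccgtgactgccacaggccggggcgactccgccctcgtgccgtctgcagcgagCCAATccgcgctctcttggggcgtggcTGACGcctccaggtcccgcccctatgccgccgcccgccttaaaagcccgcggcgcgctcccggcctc

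Of the 9 members, 7 had an entry (10 windows), and Rgs1 and Rgs14 are named only. Both strands were searched for TGACGTCA (the cAMP response element), its shorter form TGACG, the E-box CANNTG and the CCAAT box. No member window held TGACGTCA, which 1.55% of all 32851 windows hold. TGACG, found in 17.8% of all windows, had its first base 185 and 67 bases before the start of Rgs2 and 236 and 141 bases before that of Rgs4. CCAAT, found in 33.8%, began 67 bases before the start of Rgs5, 68 before Rgs16, 57 before Rgs4 and 94 before Rgs2. E-boxes occur in 66.2% of all windows. The window of Rgs4 held 4, and a window of Rgs3 and a window of Rgs19 held 2 each. None were found in the other member windows, among them those of Rgs5 and Rgs2. Such matches describe the letters of a window and no binding.

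Rgs2 encodes a protein that acts preferentially on Gq alpha subunits and is known as a brake of vasoconstrictor signaling. Neither of its probe sets passed the test. In 1419247_at FL1 pools had 4530, 5192 and 5434 (lowest, median, highest) and DUKsi pools 4033, 4365 and 4899, and FL1 was higher in 34 of 36 pairs of pools. The log2 fold change was 0.22 ± 0.0655 (SE, 95% interval 0.08 to 0.36), which missed the threshold (limma, adjusted p = 0.0568) there and in all 26 alternative settings. In 1419248_at the log2 fold change was 0.13 ± 0.0894 (SE; limma, adjusted p = 0.461), with FL1 higher in 26 of 36 pairs.

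Rgs4, also of the R4 subfamily and best known from neurons and heart, acts on Gi and Gq. In 1416287_at FL1 pools averaged 155.6 ± 19.1 and DUKsi pools 164.1 ± 34.9, in 1416286_at 145.5 ± 29.7 and 168.9 ± 21.6, and in 1448285_at 32.6 ± 6.59 and 33.3 ± 10.7 (FL1 and DUKsi in this order, n = 6 pools per line). The adjusted p was 0.888, 0.445 and 0.998 (limma). All 3 probe sets overlapped between the lines.

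Rgs3 encodes several proteins, some with long additional N-terminal parts, and acts on Gi and Gq. Its 4 probe sets had log2 fold changes of -0.16 (1425296_a_at), -0.21 (1425701_a_at), -0.17 (1449516_a_at) and 0.06 (1454026_a_at), with adjusted p of 0.327 to 0.932 (limma). In 1425296_a_at FL1 averaged 794 ± 85.2 and DUKsi 890 ± 100.3, and in 1449516_a_at FL1 averaged 471 ± 73.8 and DUKsi 526 ± 44.9 (n = 6 pools per line). In 1425701_a_at FL1 pool 3 had 84.6 and the other FL1 pools 163 to 342, whereas DUKsi pools had 194 to 266. With the actin ratio as a covariate the log2 fold change of 1425701_a_at turned to 0.56 (limma, adjusted p = 0.0234).

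Rgs16, an R4 protein whose transcript is induced by many stimuli, and Rgs1, known for restraining chemokine responses of lymphocytes, had weak signals. In the 3 Rgs16 probe sets FL1 averaged 12.1 ± 7.48, 66.9 ± 19.3 and 21.6 ± 12.5 and DUKsi 7.75 ± 2.16, 82.6 ± 24.3 and 15.4 ± 6.36 (1426037_a_at, 1451452_a_at and 1455265_a_at; n = 6 pools per line). Their 95% intervals all reached beyond 1.5-fold, so that a difference of this size is not excluded there. The same holds for Rgs1, for 1425701_a_at and 1454026_a_at of Rgs3, and for 1434940_x_at of Rgs19. Rgs1 averaged 47.9 ± 12.6 in FL1 pools and 59.8 ± 8.54 in DUKsi pools (log2 fold change -0.35 ± 0.215, SE; limma, adjusted p = 0.398). B and T lymphocyte markers summed to 1354 to 1894 in FL1 and 1294 to 1892 in DUKsi pools. Of these 13 genes 0 passed, and 4 lay below the 20th percentile of signal.

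Rgs10, a small protein of the R12 subfamily that acts on Gi and is abundant in microglia and other myeloid cells, came nearest to a call outside Rgs5. FL1 pools had 770, 948 and 983 (lowest, median, highest) and DUKsi pools 627, 683 and 799. FL1 was higher in 34 of 36 pairs, and 4 FL1 pools lay above all DUKsi pools while FL1 pools 2 and 5 lay below DUKsi pool 4. The mean was 899 ± 100.5 in FL1 pools and 697 ± 56.9 in DUKsi pools (n = 6 pools per line), a fold of 1.29 with a log2 fold change of 0.36 ± 0.0855 (SE, 95% interval 0.18 to 0.54; limma, adjusted p = 0.0165). It passed an adjusted p of 0.01 in 5 of 26 settings, over which the adjusted p ran from 0.00193 to 0.157, and its fold stayed below 1.5 in all of them. Of 15 macrophage and myeloid markers 0 passed and 12 had a positive log2 fold change, with a median of 0.31 and sums of 9163 to 11765 in FL1 and 7615 to 10733 in DUKsi. Their part in the Rgs10 values was not tested.

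Rgs14, the other R12 member, carries additional domains that bind Ras-related proteins and inactive Gi alpha subunits. It averaged 253 ± 56.7 in FL1 pools and 261 ± 27.7 in DUKsi pools (n = 6 pools per line; limma, adjusted p = 0.829). Rgs19 (GAIP) is a palmitoylated member of the RZ subfamily. In 1417786_a_at FL1 pools had 381, 459 and 505 and DUKsi pools 486, 544 and 561 (lowest, median, highest), and FL1 was higher in 1 of 36 pairs, that of FL1 pool 3 and DUKsi pool 3. The log2 fold change was -0.26 ± 0.0821 (SE; limma, adjusted p = 0.0740). In 1434940_x_at it was -0.45 with an adjusted p of 0.232 (limma), FL1 averaging 68.5 ± 16.4 and DUKsi 93.4 ± 19.6 (n = 6 pools per line).

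**Figure D3:**
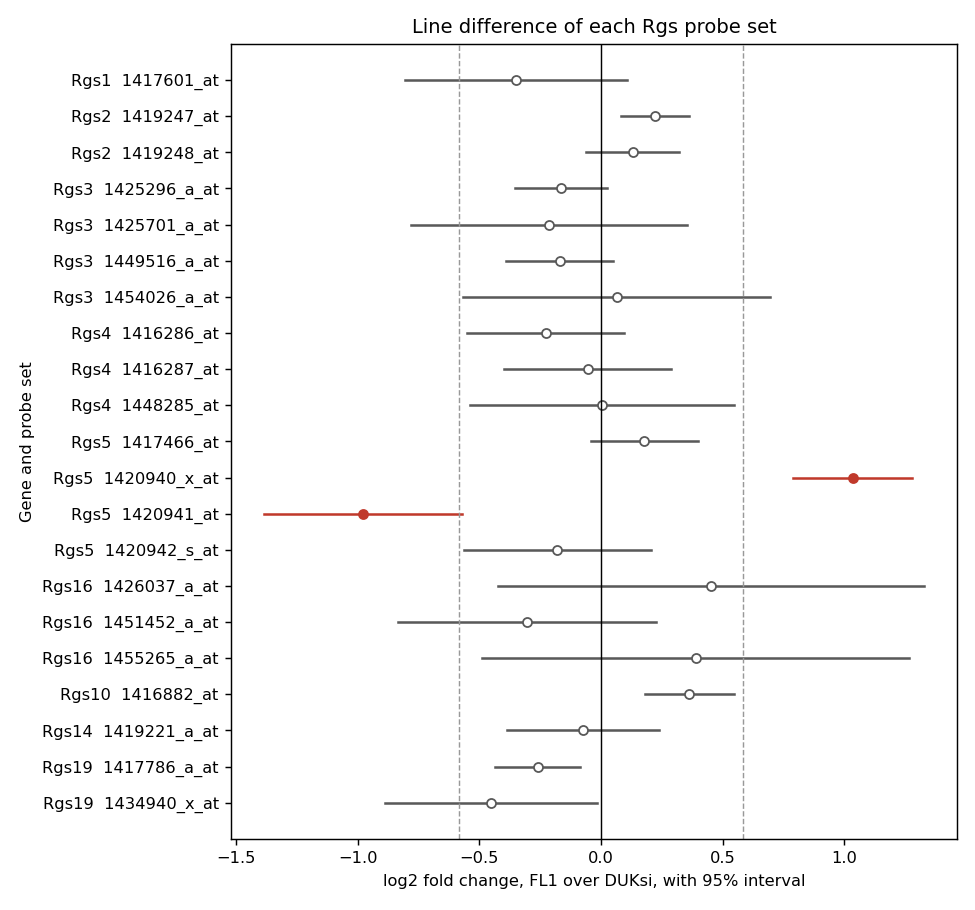
Log2 fold change, FL1 over DUKsi, of each Rgs probe set with its 95% interval (limma); dashed lines mark 1.5-fold in either direction and filled red points the 2 called probe sets. Both called points are Rgs5, at 1.03 and -0.98, and the points of the other genes lie between -0.45 and 0.45.

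The wider pathway was described with 1 probe set per gene, the brightest of those annotated to no other gene, and a gene is said to rise or fall at an adjusted p under 0.01 (limma). By this measure 3.74% of 12367 genes passed, and 0 of the 9 Rgs genes did, since for Rgs5 it takes 1417466_at. Of the other RGS proteins 0 of 8 measured passed. Rgs11, a partner of the G beta 5 subunit, averaged 665 ± 147 in FL1 and 491 ± 64.9 in DUKsi pools (log2 fold change 0.42; limma, adjusted p = 0.103), and the log2 fold change of Rgs9 was -0.31 (limma, adjusted p = 0.435). Of the other proteins with an RGS domain, among them receptor kinases and axins, 0 of 10 passed. The brightest were Arhgef12 at 0.32 (limma, adjusted p = 0.0297) and Arhgef1 at -0.03 (limma, adjusted p = 0.872).

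Of the G alpha subunits 0 of 14 passed, with a median log2 fold change of -0.02. Gnaq, which encodes Gq alpha, averaged 165 ± 51.2 in FL1 pools and 223 ± 30.1 in DUKsi pools (log2 fold change -0.47; limma, adjusted p = 0.124). The other Gq-class subunits Gna11, Gna14 and Gna15 had log2 fold changes of 0.22, -0.19 and -0.24 (limma, adjusted p of 0.319, 0.315 and 0.619). Gnai2, a Gi subunit, had a log2 fold change of 0.00 (limma, adjusted p = 0.985) and Gnas, which encodes Gs alpha, of 0.05 (limma, adjusted p = 0.823). Among 13 beta and gamma subunits only Gnb1 fell by its brightest probe set. Gnb1, a common G beta subunit, averaged 1285 ± 193 in FL1 and 2905 ± 188 in DUKsi, without overlap (n = 6 pools per line, log2 fold change -1.19 ± 0.0885; limma, adjusted p = 3.86e-07), and its 3 probe sets all passed. Gnb4, another beta subunit, missed by its brightest probe set (log2 fold change 0.20; limma, adjusted p = 0.137) but rose in its other one, with 927 ± 78.0 in FL1 pools and 560 ± 70.2 in DUKsi pools (log2 fold change 0.73; limma, adjusted p = 8.42e-05).

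Of 27 listed receptors, most of them coupled to Gi or Gq, 1 rose and 2 fell. Ptgfr, the prostaglandin F receptor that starts luteolysis, averaged 1153 ± 269 in FL1 pools and 368 ± 174 in DUKsi pools (log2 fold change 1.82; limma, adjusted p = 0.00373). F2r, a thrombin receptor, averaged 742 ± 85.7 in FL1 pools and 1178 ± 131 in DUKsi pools (log2 fold change -0.67; limma, adjusted p = 0.000244), and the orphan receptor Gprc5b had a log2 fold change of -0.50 (limma, adjusted p = 0.00338). Downstream, 0 of 15 genes of phospholipase C and protein kinase C passed. The brightest were Prkcd at -0.33 (limma, adjusted p = 0.0411) and Itpr2 at 0.09 (limma, adjusted p = 0.708). Of 19 genes of cAMP signaling Adcy7, an adenylate cyclase, fell with a log2 fold change of -0.65 (limma, adjusted p = 0.000437). Of 13 other modulators of G proteins Rasd1, a Ras-like activator of Gi signaling, fell to 551 ± 143 in FL1 pools, against 1037 ± 87.6 in DUKsi pools (n = 6 pools per line; limma, adjusted p = 0.000263).

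**Figure D4:**
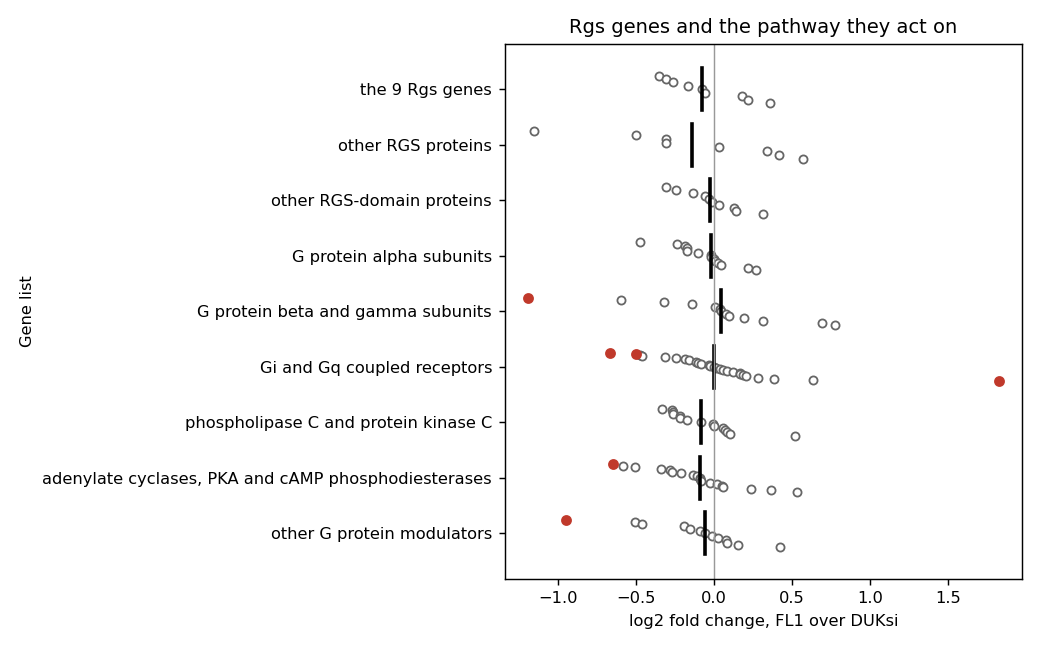
Log2 fold change, FL1 over DUKsi, of each measured gene in 9 lists of the G protein pathway, 1 probe set per gene. Filled red points passed an adjusted p under 0.01 and vertical bars are medians; all 9 Rgs genes are open, and Gnb1 at -1.19 and Ptgfr at 1.82 are the outermost points past the test.

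As Rgs5 marks pericytes, markers of pericytes and vascular smooth muscle were set beside it. Of 15 genes 1 fell and 0 rose, with a median log2 fold change of -0.01, and their signals summed to 27628 to 31456 in FL1 and 26551 to 34982 in DUKsi pools. The exception was Myl9, a myosin light chain, with 2501 ± 318 in FL1 pools and 3854 ± 122 in DUKsi pools (n = 6 pools per line; limma, adjusted p = 7.21e-05). Pdgfrb, also used as a pericyte marker, had a log2 fold change of -0.13 (limma, adjusted p = 0.700) and Notch3 of 0.08 (limma, adjusted p = 0.693). Of 14 endothelial markers 1 rose, Pecam1, with a log2 fold change of 0.58 (limma, adjusted p = 0.00810), and the sums were 7957 to 8910 in FL1 and 6973 to 8672 in DUKsi.

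The genes next to the members were also compared, taking the 5 nearest measured genes on each side in the order of RefSeq. Around Rgs5, 2 of 10 neighbours passed an adjusted p under 0.01 and 5 of 10 an adjusted p under 0.05, all 5 higher in FL1, while 3.74% and 7.42% of 12367 genes did so. Hsd17b7, a steroid and cholesterol enzyme of the corpus luteum, averaged 4541 ± 716 in FL1 pools and 1401 ± 584 in DUKsi pools (log2 fold change 1.78; limma, adjusted p = 4.99e-05). Uhmk1, a kinase, averaged 625 ± 73.4 in FL1 pools and 422 ± 15.6 in DUKsi pools (log2 fold change 0.56; limma, adjusted p = 0.000560). Of the probe sets of Hsd17b7 2 of 2 passed, but of those of Uhmk1 only 1 of 4. Ddr2, Nuf2 and Mgst3 had log2 fold changes of 0.48, 0.46 and 0.43 (limma, adjusted p of 0.0270, 0.0322 and 0.0177). The neighbours of Rgs4 are largely the same genes. Around the other members 0 to 2 neighbours passed 0.01. Next to Rgs16, Glul rose (in 1 of its 2 probe sets) and Npl fell. Odr4 rose near Rgs1 (log2 fold change 0.63, limma, adjusted p = 0.000523, in 1 of its 2 probe sets). Near Rgs10, Tgfb1i1 rose (log2 fold change 0.41, limma, adjusted p = 0.000828). Among the 10 neighbours of Rgs2, which include Ptgs2 and Pla2g4a, 0 passed.

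**Figure D5:**
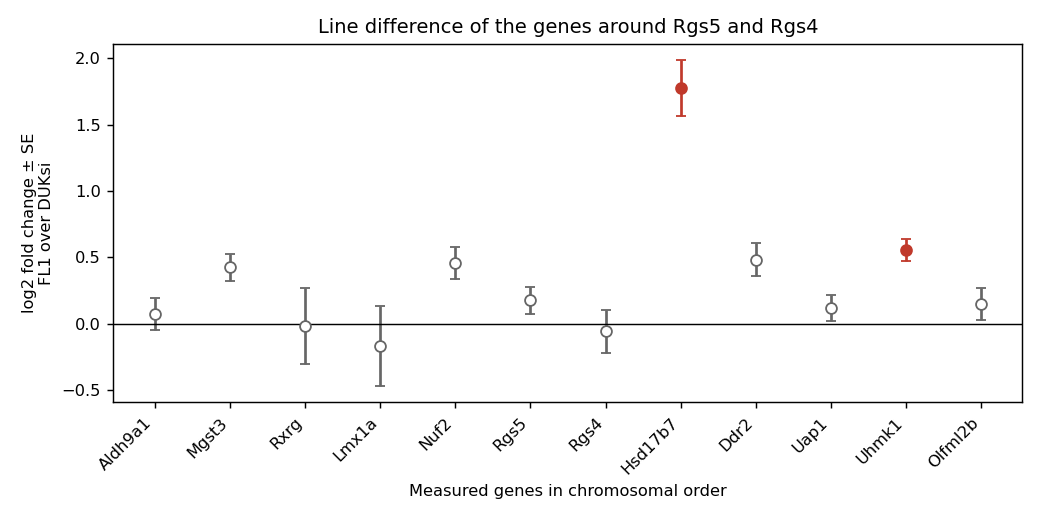
Log2 fold change, FL1 over DUKsi, with its SE (limma) for Rgs5, Rgs4 and the measured genes around them in chromosomal order, 1 probe set per gene. Filled red points passed an adjusted p under 0.01; Hsd17b7 stands at 1.78 and Uhmk1 at 0.56, and Rgs5, here by 1417466_at, at 0.18.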

How the data were processed

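Ovary RNA of FL1 and DUKsi pools had been hybridized to MOE 430A arrays, and the deposited intensity values are MAS5 signals that the authors scaled to a common target on a linear scale. MAS5 subtracts mismatch probes, so that weak signals are noisy. The methods give fewer animals per pool than the sample labels. The members and gene lists were chosen with earlier results of these data known.

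Both arrays of each pool were averaged, and a linear model of the log2 signals of the 12 pools with moderated variances (limma 3.58.1 with its trend option, R 4.3.3) was used, leaving out 64 control probe sets. Adjusted p-values cover 22626 probe sets. The number of pools limits the precision. Pools hold different animals of a line.

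Every probe set of the members is reported. From other lists, the rule was to name up to 3 genes past the test with the largest change, or up to 2 with the highest signal. Some of these are given only within the count of their list. Named beyond this rule, after their values were seen, were Gnaq, Gna11, Gna14, Gna15, Gnb4, Pdgfrb and Notch3. So were the other probe sets of Gnb4 and Star, the genes next to members and those with calls in both directions. Genes like a member were ranked by Pearson r of deviations from the line means. The threshold for pairs of probe sets was chosen while the test was set up. The procedure was tested on simulated data. Probe-level intensities, detection calls and qPCR values were not used here. Alternatives were single arrays of a pool, other averaging, scaling and treatment of low signals, the methods' t-test, other limma settings, the pool number as a block, the actin ratio as a covariate and omitted pools.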

Additional observations from a re-analysis of the deposited data

Results flagged for a closer look

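In 4 of the 42 groups of 6 pools, 1 pool of a line stood far from the other pools by Dixon's ratio, which chance gives in about 1 in 20 groups. In 1419248_at of Rgs2, FL1 pool 1 had a signal of 2750, and the other FL1 pools had 3379 to 3623. In 1420942_s_at of Rgs5, FL1 pool 1 had 151, and the other FL1 pools had 267 to 334. In 1455265_a_at of Rgs16, FL1 pool 3 had 44.8, and the other FL1 pools had 6.75 to 20.9. In 1417786_a_at of Rgs19, DUKsi pool 3 had 486, and the other DUKsi pools had 536 to 561.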

How the results depend on the processing

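The count of 2 called Rgs probe sets was 1 with the second array of each pool alone, with arrays scaled to the same median, with the methods' t-test (335 of all probe sets, against 524), with limma without the trend, with the pool number as a replicate block, with the actin ratio as a covariate, and without FL1 pool 3 and DUKsi pool 4. It was 1 to 2 when single pools were left out. Where it was 1, 1420940_x_at of Rgs5 was called and 1420941_at missed the adjusted p of 0.01, at log2 fold changes of -0.99 to -0.81, or -0.64 with the actin covariate (-0.98 as reported). The pool numbers did not pair the samples (same-number deviations correlated at -0.264 to 0.167), and the replicate block changed no other call. The 4 pairs of probe sets that differed were 3 to 4 without single pools. Without FL1 pool 3 and DUKsi pool 4 they were 0, where fewer splits are possible but 4 pairs could still have passed. The replicate block also gave 0, but there the smallest possible p is too high for 4 of 20 pairs to pass. Rgs10 passed an adjusted p of 0.01 with 24 arrays, with median scaling and without FL1 pool 2, FL1 pool 5 or DUKsi pool 4.

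Of 539 member values under alternatives 31 changed sign, none of them past 0.01, in 7 probe sets. The first array alone gave log2 fold changes of -0.27 (Rgs4 1448285_at), -0.55 (Rgs16 1455265_a_at) and 0.033 (Rgs14), the second array -0.33 (Rgs3 1454026_a_at) and 0.10 (Rgs4 1416287_at). Mean log2 values and 24 arrays each gave -0.068 for Rgs3 1454026_a_at. Quantile normalization gave 0.057 (Rgs4 1416287_at) and 0.016 (Rgs14), and median scaling 0.032 and 0.013 for these. For Rgs4 1448285_at an added constant of 48.6 gave -0.0062, the t-test -0.030, and leaving out FL1 pool 3 together with DUKsi pool 4 -0.043. The actin covariate gave 0.56 (Rgs3 1425701_a_at), -0.17 (Rgs4 1448285_at), -0.035 (Rgs5 1417466_at) and -0.046 (Rgs16 1455265_a_at). Leaving out single pools gave -0.065 to 0.18 (Rgs3 1454026_a_at), -0.37 to 0.038 (Rgs3 1425701_a_at), -0.11 to 0.14 (Rgs4 1448285_at), -0.17 to 0.0097 (Rgs4 1416287_at) and -0.17 to 0.043 (Rgs14). The cause was not tested. Weak signals, below the 40th percentile, limit Rgs1, Rgs16, Rgs3 1454026_a_at, Rgs4 1448285_at and Rgs19 1434940_x_at.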

Other observations

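For the members above the 40th percentile of signal, the genes whose log2 signals followed them most closely were ranked by Pearson r of the deviations from the line means over the 12 pools, among 12496 probe sets. Within a pool, all probe sets share the arrays, their scaling and the quality of the RNA, and high values are reached somewhere among so many candidates. Rgs5 (1417466_at) was followed by Cycs (r = 0.926) and Ndufc1 (r = 0.922), which encode mitochondrial proteins of respiration, and by Chfr (r = 0.913). Rgs2 was followed by Eif3l (r = 0.895), Gabpa (r = 0.890) and Rab11fip5 (r = 0.883), Rgs10 by Polr2b (r = 0.949), Gatc (r = 0.915) and Ddx54 (r = 0.904), and Rgs19 by Hspg2 (r = 0.920), Ptpn6 (r = 0.914) and Ciao3. For Rgs3 these were Pcbd1 (r = 0.940), Mtf2 and Eny2, for Rgs4 Epb41l3 (r = 0.892), Echdc1 and Sars2, and for Rgs14 H2bc18 (r = 0.979), Slc25a38 and Prkcz. Of these 21 genes, Mtf2 (log2 fold change -0.32; limma, adjusted p = 0.00910) and H2bc18 (-1.59; limma, adjusted p = 0.000137) themselves fell in FL1.

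Transcripts that the preovulatory luteinizing hormone surge and other acute stimuli induce were compared because several Rgs genes are known to be inducible. Of 19 such genes 0 passed by the brightest probe set, with a median log2 fold change of -0.02. Egr1, an immediate early gene, averaged 3684 ± 577 in FL1 pools and 3510 ± 925 in DUKsi pools (SD, n = 6 per line; limma, adjusted p = 0.774), and Star, the cholesterol transporter of steroid synthesis, had a log2 fold change of 1.59 (limma, adjusted p = 0.0333) by its brightest probe set and rose in 1 of its 3 probe sets (1.61; limma, adjusted p = 0.00765). Of 11 oocyte markers Zp3, a protein of the egg coat, fell to 1306 ± 84.4 in FL1 pools, against 1839 ± 225 in DUKsi pools (SD, n = 6 per line; limma, adjusted p = 0.00106), and of 4 theca cell markers 0 passed.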
